A study of Mus musculus with 9 samples.

Results

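The water channels, gap junction proteins and fiber membrane protein examined here were *Mip*, *Aqp1*, *Aqp5*, *Gja1*, *Gja3* and *Lim2*, 6 of the 47729 genes listed for newborn mouse lens. They were chosen by gene symbol as channel and junction genes known from the lens. Earlier results of these data were known when they were chosen. RNA-Seq was performed on whole lenses collected at birth from 3 lines on the *FVB/N* inbred background, which are non-transgenic *FVB/N* mice, hemizygous *P0-3.9GFPCre* mice and hemizygous *Le-Cre* mice. Both transgenes express CRE together with GFP under a *Pax6* P0 promoter fragment active in the surface ectoderm and lens, so the CRE protein, the GFP protein and the transgene insertion cannot be told apart within a line. There were 3 pools per line, made of 6 lenses from 3 mice each, so a value is an average over mice.

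The lens is a closed, avascular tissue in which a single layer of epithelium covers a mass of elongated fiber cells. Fiber cells lose their organelles and exchange water, ions and metabolites through channels in their membranes. *Mip* encodes aquaporin 0, a water channel and adhesion protein of fiber cells, and *Aqp1* encodes the classic water channel of the lens epithelium. *Aqp5* encodes a water channel best known from glands and also present in lens. *Gja1* encodes connexin 43, the gap junction protein of the lens epithelium, and *Gja3* encodes connexin 46, which joins fiber cells. *Lim2* encodes an integral membrane protein of fiber cells that belongs to the PMP22 family.

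The expected counts, RSEM's estimates of the reads from each gene, summed to between 20670968 and 28098059 per pool. Genes whose symbols begin with *Cry*, mainly crystallins, took 39.11 to 43.04% of them. The summed level of 10 genes that define lens was 215650 to 263990 TPM (a level scaled for gene length and library size), and 5 markers of corneal and surface epithelium summed to 0 to 0.26 TPM, with *Krt12* and *Krt14* at 0 in every pool and *Krt15* at up to 0.26 TPM. CPM is the count scaled to the TMM-normalized library size, except for the Y-linked genes, where it is scaled to the plain sum of counts. Y-linked genes summed to 121 to 193 CPM in the *FVB/N* pools. The *P0-3.9GFPCre* pools held 1.66 to 135 CPM of them and the *Le-Cre* pools 0.602 to 74.2 CPM. The sex of the mice and the line therefore cannot be fully told apart. In whole lenses, fewer cells of a type and less RNA per cell cannot be told apart either.

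Upstream sequence is shown for both aquaporins and both connexins that form a contrast of high and low level in these lenses (*Mip* with *Aqp1*, and *Gja3* with *Gja1*). On GRCm38, *Mip* lies on chromosome 10 from 128225838 to 128231812 (plus strand), *Aqp1* on chromosome 6 from 55336432 to 55348555 (plus), *Gja3* on chromosome 14 from 57034460 to 57058100 (minus) and *Gja1* on chromosome 10 from 56377330 to 56402513 (plus). The sequences below are RefSeq promoter sequence of GRCm38.p6, cover chr10:128225560-128225809, chr6:55336049-55336298, chr14:57058101-57058280 and chr10:56377050-56377299 in that order, and read 5′ to 3′ on the strand of the gene. Bases that lie in an annotated exon were left out, which shortened the stretch of *Gja3* from 250 to 180 bases. Capitals mark matches on either strand to TATAAA (the TATA box), GGGCGG (the GC box that Sp factors bind) and TGCTGA (the half-site of the MAF factors).
Mip: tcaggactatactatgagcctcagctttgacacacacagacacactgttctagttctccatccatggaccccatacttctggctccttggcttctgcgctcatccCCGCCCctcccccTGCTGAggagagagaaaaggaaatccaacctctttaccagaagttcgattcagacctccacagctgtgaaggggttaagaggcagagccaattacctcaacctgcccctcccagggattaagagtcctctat
Aqp1: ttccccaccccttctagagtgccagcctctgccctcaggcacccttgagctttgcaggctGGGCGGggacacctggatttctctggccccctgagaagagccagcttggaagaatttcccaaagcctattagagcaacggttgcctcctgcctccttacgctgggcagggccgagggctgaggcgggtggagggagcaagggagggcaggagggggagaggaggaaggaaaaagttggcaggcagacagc
Gja3: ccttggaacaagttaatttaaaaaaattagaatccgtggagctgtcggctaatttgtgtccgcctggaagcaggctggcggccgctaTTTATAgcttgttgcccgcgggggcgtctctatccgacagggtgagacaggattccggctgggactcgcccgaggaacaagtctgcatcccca
Gja1: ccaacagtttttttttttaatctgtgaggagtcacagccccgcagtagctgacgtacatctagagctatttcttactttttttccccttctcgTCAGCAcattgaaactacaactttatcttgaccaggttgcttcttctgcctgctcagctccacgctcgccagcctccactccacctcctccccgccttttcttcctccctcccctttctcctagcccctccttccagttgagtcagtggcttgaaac
The *Mip* stretch held 1 match to GGGCGG and 1 to TGCTGA, which do not overlap. *Aqp1* held 1 match to GGGCGG, *Gja1* held 1 to TGCTGA and *Gja3* held 1 to TATAAA. Among 32851 RefSeq promoters, 32.7% held GGGCGG, 16.1% held TGCTGA and 12.4% held TATAAA within 250 bases, and 8.37% held TATAAA within 180 bases. These matches are descriptions of the letters, not shown binding sites.

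Levels, which can be compared between genes only on the TPM scale, spanned more than 3 orders of magnitude. The order from high to low was *Mip*, *Lim2*, *Gja3*, *Gja1*, *Aqp1* and *Aqp5* in each of the 9 pools, and the pools of neighbors in this order did not overlap within any line. Within a pool, *Mip* was 3.57 to 4.36 times *Lim2*, *Lim2* was 2.77 to 3.27 times *Gja3*, and *Gja3* was 9.71 to 23.0 times *Gja1*. *Gja1* was 2.65 to 17.5 times *Aqp1*, and *Aqp1* was 1.29 to 5.08 times *Aqp5*. *Mip* accounted for 99.65 to 99.80% of the summed TPM of 12 aquaporin genes. The 6 genes together took 0.949 to 1.04% of the counts of a pool.

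**Figure D1:**
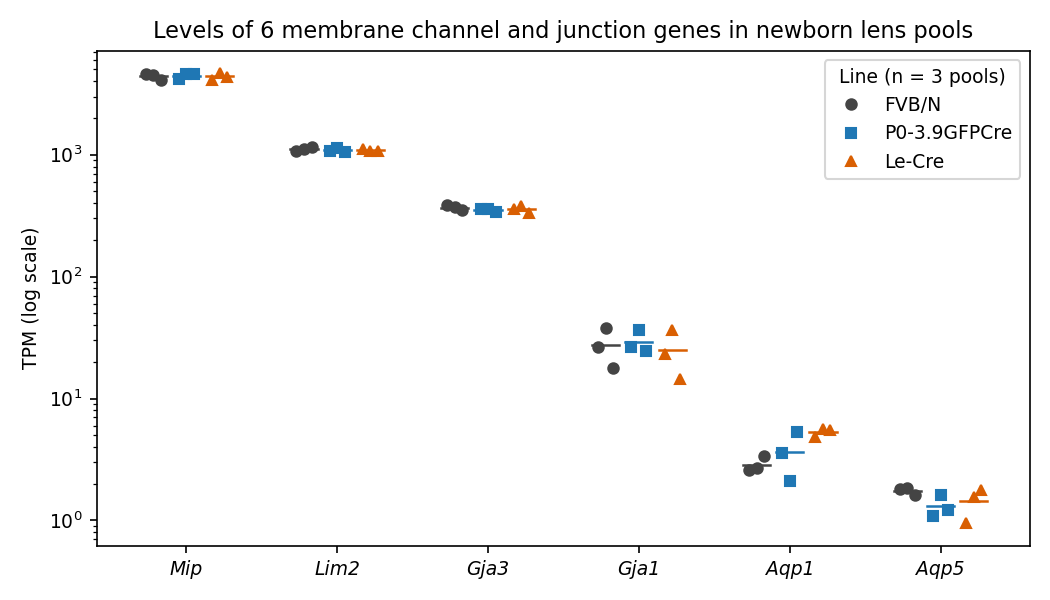
TPM (log axis) of the 6 genes in each of the 9 pools, with a horizontal line at the mean of each line's 3 pools. *Mip* lies between 4089 and 4658 TPM and *Aqp5* between 0.95 and 1.85 TPM, and the lines lie close together for *Mip*, *Lim2* and *Gja3*.

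*Mip*, the fiber water channel, was listed at 4597, 4469 and 4089 TPM in the *FVB/N* pools, at 4179.65, 4558 and 4583 TPM in *P0-3.9GFPCre* and at 4122, 4658 and 4372 TPM in *Le-Cre*. The lines overlapped, and *Mip* ranked 17 to 21 among all genes. The last exon of *Mip* overlaps *Gm26847*, a lincRNA on the opposite strand (chromosome 10 from 128230590 to 128232790), over 1223 exon bases, which is 57.04% of the exon bases of *Mip*. Of the 51-base sequences of *Mip*, 56.02% also occur in *Gm26847* when strand is ignored, and no source used here gives the strand setting of the counting. *Gm26847* was listed at 818 to 1050.3 TPM and held 16.1 to 18.1% of the summed counts of the pair. Unless the counting used strand, reads of *Mip* and *Gm26847* cannot be told apart in the overlap, and the level of *Mip* is uncertain to that extent.

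**Figure D2:**
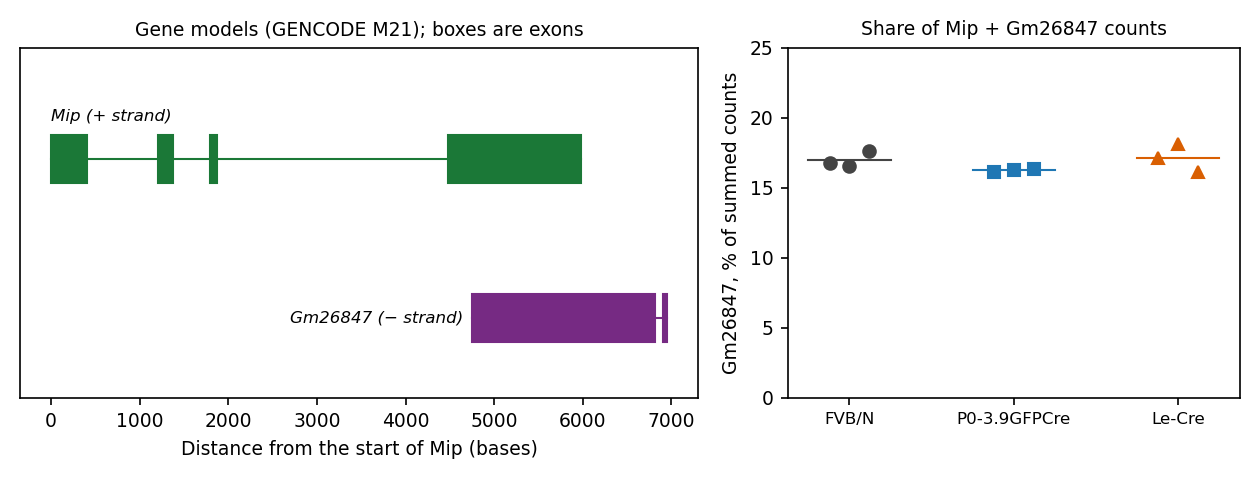
Left, exons (boxes) of *Mip* and of the opposite-strand *Gm26847* by distance in bases from the start of *Mip*. Right, the percentage of the summed *Mip* and *Gm26847* counts listed under *Gm26847* in each pool, with a line at the mean of each line, which lay between 16.1 and 18.1% in all pools.

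*Lim2*, the fiber membrane protein, was listed at 1073, 1107 and 1147 TPM in *FVB/N*, at 1069.85, 1141 and 1052 TPM in *P0-3.9GFPCre* and at 1118, 1074 and 1081 TPM in *Le-Cre*. These pools overlapped as well. The deposited tables list 2 models at this locus on chromosome 7, *Lim2* (43430088 to 43435996, plus strand) and *Gm42419* (43427670 to 43435991), which GENCODE M21 joins into 1 gene. The *Lim2* transcript shares 87.89% of its 51-base sequences with that of *Gm42419*, which held 2.33 to 3.33% of their summed counts.

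*Gja3*, the fiber connexin, was listed at 387, 369.9 and 350.2 TPM in *FVB/N*, at 357, 359 and 339.6 TPM in *P0-3.9GFPCre* and at 356, 378 and 334 TPM in *Le-Cre*. The pools overlapped on this scale. Its spread within lines was small, with a pooled SD of 0.04 on the log2 CPM scale, and 4.21% of the 95 genes of similar level had an SD as low or lower.

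*Gja1*, the epithelial connexin, was listed at 26.7, 38.1 and 17.6 TPM in *FVB/N*, at 26.6, 36.8 and 24.4 TPM in *P0-3.9GFPCre* and at 23.4, 36.5 and 14.5 TPM in *Le-Cre*. The pool numbered 2 was the highest and the pool numbered 3 the lowest in each line. The Y-linked genes were highest and lowest in the same pools. They summed to 130, 193 and 121 CPM in *FVB/N* and to 56.2, 135 and 1.66 CPM in *P0-3.9GFPCre*. In *Le-Cre* they summed to 1.55, 74.2 and 0.602 CPM. For *Gja1* the pooled SD within lines was 0.49 on the log2 CPM scale, which 99.1% of the 1285 genes of similar level did not exceed. The summed level of 5 pigment epithelium and ciliary body markers was 8.20, 14.1 and 7.65 TPM in *FVB/N*, 9.80, 9.36 and 7.10 TPM in *P0-3.9GFPCre* and 7.40, 10.8 and 7.67 TPM in *Le-Cre*, with *Rpe65* at 0 in every pool but *Le-Cre* replicate 3 (0.03 TPM). The pool numbered 2 thus had the highest sum in *FVB/N* and *Le-Cre* but not in *P0-3.9GFPCre*. *Mitf* was the largest part of this sum in every pool, at 7.55, 6.42 and 6.11 TPM in *P0-3.9GFPCre*. *Dct* and *Tyr* were highest in the pool numbered 2 in each line, with *Dct* at 0.67, 1.36 and 0.33 TPM in *P0-3.9GFPCre*. *Pmel* was not, at 1.42, 1.34 and 0.44 TPM in *P0-3.9GFPCre*. The 6 retinal markers summed to 1.76, 1.68 and 0.45 TPM in *FVB/N*, 1.09, 2.65 and 1.04 TPM in *P0-3.9GFPCre* and 1.56, 3.60 and 0.61 TPM in *Le-Cre*. The pool numbered 3 had the lowest retinal sum in each line. The pool numbered 2 had the highest in *P0-3.9GFPCre* and *Le-Cre* but not in *FVB/N*. The part of these cells and of the sex of the mice in the level of *Gja1* was not tested.

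*Aqp1*, the epithelial water channel, was listed at 2.59, 2.67 and 3.36 TPM in *FVB/N*, at 3.59, 2.10 and 5.31 TPM in *P0-3.9GFPCre* and at 4.83, 5.64 and 5.49 TPM in *Le-Cre*, from 103 to 329 expected counts per pool. The *Le-Cre* pools all lay above the *FVB/N* pools, whereas the *P0-3.9GFPCre* pools overlapped both. *Aqp5* (chromosome 15 from 99590782 to 99594829, plus strand) was listed at 1.81, 1.85 and 1.62 TPM in *FVB/N*, at 1.09, 1.63 and 1.22 TPM in *P0-3.9GFPCre* and at 0.95, 1.56 and 1.79 TPM in *Le-Cre*. It rested on 31 to 60 expected counts per pool, and all 3 lines overlapped in TPM.

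**Figure D3:**
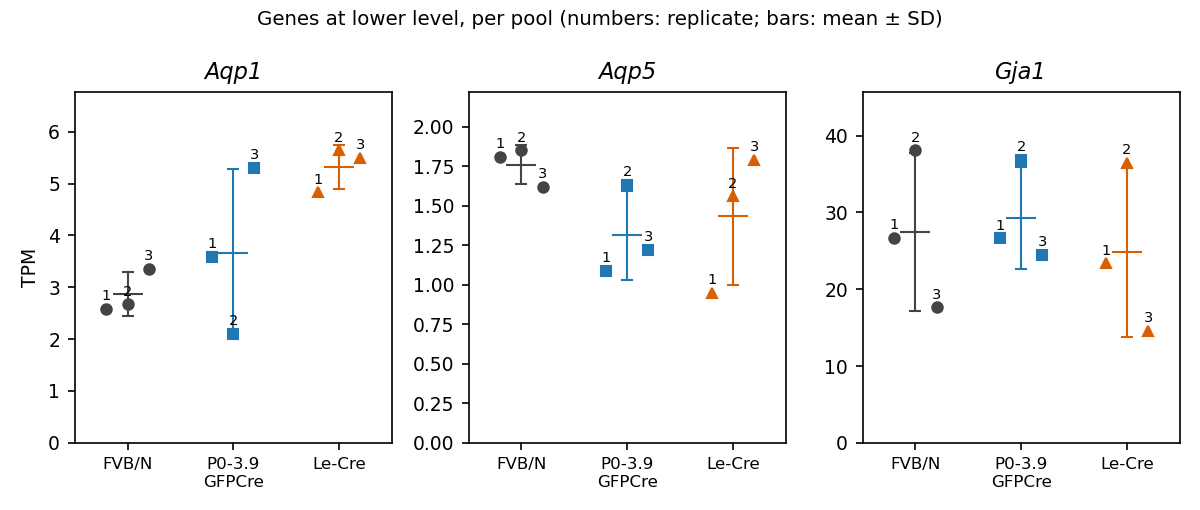
TPM of *Aqp1*, *Aqp5* and *Gja1* in each pool (points, numbered by replicate), with the mean and SD of the 3 pools of each line. The *Le-Cre* pools of *Aqp1* (4.83 to 5.64 TPM) lie above the *FVB/N* pools (2.59 to 3.36 TPM), and the pool numbered 2 is highest for *Gja1* in each line.

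The comparison of the transgenic lines with *FVB/N* asks whether carrying either CRE transgene goes with a change in lens gene expression. All 6 genes passed the filter on low counts and were tested with edgeR among 15557 genes, and a gene was called at 1.5-fold or more with an adjusted p of at most 0.05. Between *Le-Cre* and *FVB/N*, 0 of the 6 genes were called, where 0.0643% of all tested genes were. At an unadjusted p under 0.05, 1 of the 6 passed (*Aqp1*), against 7.94% of all tested genes. The median log2 fold change of the 6 was −0.08, and that of all tested genes was −0.00404.

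*Aqp1* had the largest difference of the 6. Its normalized level was 12.8 ± 1.05 CPM (SD, n = 3 pools) in *Le-Cre* and 7.09 ± 1.27 CPM in *FVB/N*, a log2 fold change of 0.85 (standard error 0.26, 95% interval 0.27 to 1.42). The unadjusted p was 0.00781 and the adjusted p was 0.431 in edgeR's quasi-likelihood test. The adjusted p ranged from 0.00671 to 0.954 over the alternatives. It passed the threshold only when the filter on low counts was omitted, a setting that called 131 genes in all. With the share of Y-linked counts in the model the log2 fold change was 0.45 (adjusted p = 0.954, edgeR), and with DESeq2's prior it was 0.40 (adjusted p = 0.0937). All 6 lens epithelium markers had a negative log2 fold change between *Le-Cre* and *FVB/N*, where 49.0% of all tested genes were positive. Their median was −0.14, and 0 were called (lowest adjusted p 0.169, edgeR). Of the 6 lens fiber markers, 5 were also negative, with a median of −0.01, and 0 were called (lowest adjusted p 0.356, edgeR). *Aqp1* is also made by vessel endothelium and red blood cells. The 5 endothelial markers summed to 24.8 to 33.0 TPM in *Le-Cre* and 27.6 to 39.7 TPM in *FVB/N*, and the 5 blood markers to 85.2 to 263 TPM and 92.2 to 188 TPM, so both sums overlapped between the lines, and no marker of either list was at 0. *Pecam1* was the largest part of the endothelial sum in every pool. Of the 10 genes, 2 had TPM pools that did not overlap, both higher in *Le-Cre*. The share over all tested genes was taken on the CPM scale, where 6.46% were higher and 7.03% lower without overlap. On that scale 1 of the 5 endothelial markers and 0 of the 5 blood markers had pools without overlap. The red cell gene *Alas2* was at 0.35, 0.64 and 0.32 TPM in *Le-Cre* and 0.28, 0.27 and 0.15 TPM in *FVB/N*, and its pools overlapped on the CPM scale (log2 fold change 0.14, adjusted p = 0.979, edgeR). The endothelial gene *Tek* was at 4.47, 4.76 and 4.62 TPM in *Le-Cre* and 4.45, 3.94 and 4.04 TPM in *FVB/N* (log2 fold change 0.15, standard error 0.08, adjusted p = 0.732, edgeR). The part of epithelial, endothelial and blood cells in the level of *Aqp1* was not tested.

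For the fiber genes the intervals of the difference were narrow. *Mip* was at 8542 ± 403 CPM (SD, n = 3 pools) in *Le-Cre* and 8763 ± 335 CPM in *FVB/N*, a log2 fold change of −0.04 (95% interval −0.20 to 0.12, adjusted p = 0.947, edgeR). *Lim2* had a log2 fold change of −0.06 (95% interval −0.22 to 0.10, adjusted p = 0.895). *Gja3* had −0.09 (95% interval −0.21 to 0.03, adjusted p = 0.744). The intervals of these 3 genes lay within 1.5-fold in either direction. The *Gja3* pools did not overlap on the CPM scale, with *Le-Cre* lower, as was the case for 7.03% of all tested genes, and the *Aqp1* pools did not overlap with *Le-Cre* higher, as for 6.46%. For *Gja1* the log2 fold change was −0.19 (95% interval −0.84 to 0.46, adjusted p = 0.924) and for *Aqp5* it was −0.34 (−0.99 to 0.31, adjusted p = 0.833), so both intervals included a fall of 1.5-fold but not a rise of that size. For *Aqp5* the value was −0.12 without *Le-Cre* replicate 1 and −0.57 without *Le-Cre* replicate 3. The sign for *Gja1* turned, to 0.35, with the Y-linked covariate, to 0.09 without *FVB/N* replicate 2 and to 0.05 without *Le-Cre* replicate 3.

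Between *P0-3.9GFPCre* and *FVB/N*, 0 of the 6 genes were called, and 0% of all tested genes were. By DESeq2, 2 genes were called without a prior and 1 with it, out of 1929 that received an adjusted p. These held 4 of the 6 genes, without *Aqp1* and *Aqp5*, and none of the 4 was called. By edgeR, 6.81% of all tested genes had an unadjusted p under 0.05. That group held 1 of the 6, *Gja3*, at 479.8 ± 12.8 CPM (SD, n = 3 pools) in *P0-3.9GFPCre* and 528 ± 18.7 CPM in *FVB/N*, a log2 fold change of −0.14 (standard error 0.05, 95% interval −0.26 to −0.02, unadjusted p = 0.0273, adjusted p = 0.662, edgeR). Its pools did not overlap on the CPM scale, nor did those of *Aqp5* (log2 fold change −0.49, 95% interval −1.14 to 0.17, adjusted p = 0.810), both lower in *P0-3.9GFPCre*, as for 5.94% of all tested genes, and none of the 6 was higher without overlap, as 6.02% were. This comparison shares its *FVB/N* pools with the one before. The log2 fold changes of the others were −0.05 for *Mip*, −0.10 for *Lim2*, 0.04 for *Gja1* and 0.28 for *Aqp1*, with adjusted p of 0.923, 0.832, 0.990 and 0.872. That of *Aqp1* became −0.10 without *P0-3.9GFPCre* replicate 3, 0.56 without *P0-3.9GFPCre* replicate 2 and 0.0186 with the Y-linked covariate.

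Between the transgenic lines, 0 of the 6 genes were called, and 0% of all tested genes were, where DESeq2 called 35 of all genes without a prior and 4 with it. At an unadjusted p under 0.05, 0 of the 6 passed by edgeR, against 7.88% of all tested genes. *Aqp1* was higher in *Le-Cre* by a log2 fold change of 0.56 (standard error 0.26, 95% interval −0.01 to 1.13, unadjusted p = 0.0520, adjusted p = 0.644). With 1 pool left out the value lay between 0.29 (without *P0-3.9GFPCre* replicate 2) and 0.95 (without *P0-3.9GFPCre* replicate 3). No pools of the 6 were free of overlap on the CPM scale, where 6.74% of all tested genes were higher and 7.37% lower in *Le-Cre* without overlap. The remaining log2 fold changes were 0.01 for *Mip*, 0.04 for *Lim2*, 0.05 for *Gja3*, −0.23 for *Gja1* and 0.14 for *Aqp5*.

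**Figure D4:**
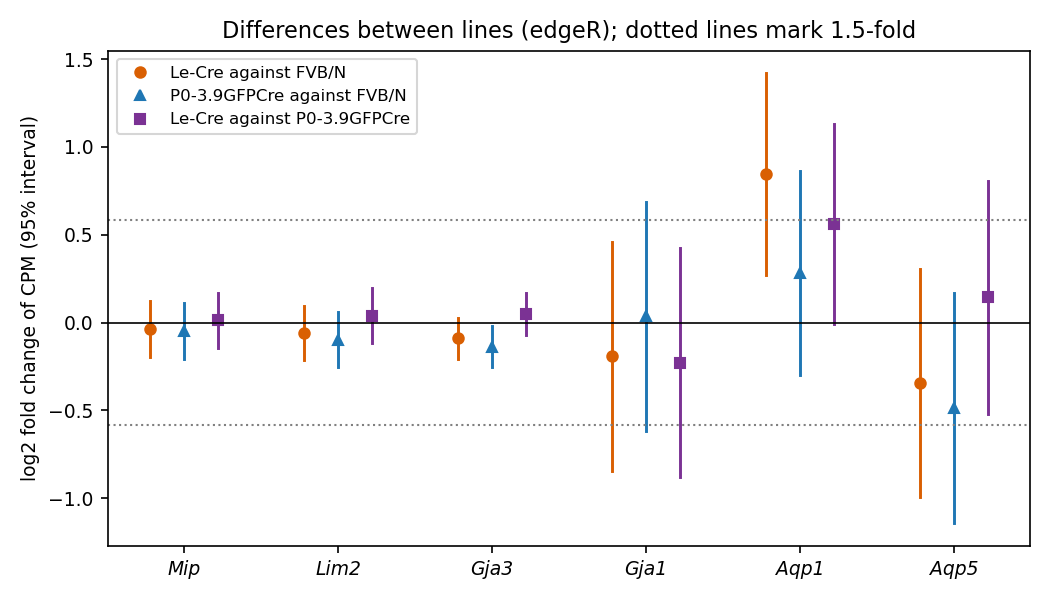
Log2 fold change in CPM of the 6 genes for each pair of lines (points) with 95% intervals (bars) from edgeR, and dotted lines at 1.5-fold. The intervals of *Mip*, *Lim2* and *Gja3* lie within 1.5-fold, and that of *Aqp1* between *Le-Cre* and *FVB/N* runs from 0.27 to 1.42.

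Ratios within a pool do not depend on the normalization between pools. The log2 ratio of *Mip* to *Aqp1* in TPM was 9.69 ± 0.05 (SD, n = 3 pools) in *Le-Cre*, 10.3 ± 0.68 in *P0-3.9GFPCre* and 10.6 ± 0.29 in *FVB/N*. The *Le-Cre* pools lay below those of both other lines, narrowly for *P0-3.9GFPCre* (highest *Le-Cre* pool 9.737, lowest *P0-3.9GFPCre* pool 9.753). The differences were −0.90 against *FVB/N* and −0.65 against *P0-3.9GFPCre*. The second was −0.28 without *P0-3.9GFPCre* replicate 2 and −0.95 without *P0-3.9GFPCre* replicate 3. With all pools, both had p = 0.1 by a two-sided exact permutation test, the smallest p that 3 pools against 3 allow, and an adjusted p of 0.45 over the 9 comparisons of 3 ratios. The log2 ratio of *Gja3* to *Gja1*, of fiber to epithelial connexin, was 3.94 ± 0.57 in *Le-Cre*, 3.61 ± 0.28 in *P0-3.9GFPCre* and 3.82 ± 0.52 in *FVB/N*. That of *Lim2* to *Mip* was −2.01 ± 0.12, −2.03 ± 0.08 and −1.98 ± 0.14. The differences between lines in these ratios had exact permutation p from 0.4 to 0.9.

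By Pearson's r of log2 CPM over the 9 pools, the 3 genes most like each of the 6 were picked from genes with a mean of at least 10 CPM. They were *Qrsl1* (0.96), *Ccdc47* and *Tax1bp3* for *Mip*, *Phf12* (0.94), *Pcp4* and *Oxr1* for *Lim2*, and *Clic5* (0.95), *Reep1* and *Kifap3* for *Gja3*. For the other genes they were *Rgl1* (0.95), *Akt2* and *Reln* for *Gja1*, *Pcdh7* (0.97), *Pacsin2* and *Ccna2* for *Aqp1*, and *Rsf1* (0.92), *Lsamp* and *2610008E11Rik* for *Aqp5*. The 9 points share lines and libraries, and these are the highest of 7650 or so genes ranked for each, so the values are descriptions.

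Among the 9 other aquaporins, 5 were tested and 4 had a mean of at least 1 TPM in some line. *Aqp11*, an intracellular aquaporin, was at 1.5 to 4.18 TPM over the pools, *Aqp4*, the water channel of glia, at 1.34 to 1.80, *Aqp8* at 0.18 to 1.45 and *Aqp3*, a water and glycerol channel of epithelia, at 0.26 to 1.91. No gene of this list was called in any comparison. The 5 tested genes had a median log2 fold change of 0.34 between *Le-Cre* and *FVB/N*, against −0.00404 for all tested genes. *Aqp3* had 1.17 (standard error 0.43, unadjusted p = 0.0192, adjusted p = 0.529, edgeR) from 0.26, 0.58 and 0.42 TPM in *FVB/N* and 0.66, 1.91 and 0.93 TPM in *Le-Cre*, where the pools did not overlap. These are low levels. On the CPM scale 2 of the 5 tested genes (*Aqp3* and *Aqp11*) were higher in *Le-Cre* without overlap, where 6.46% of all tested genes were.

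Of the 21 other connexins and pannexins, 9 were tested and 0 were called in any comparison. *Gje1*, which encodes connexin 23, was at 154 to 203 TPM, *Gjc1* (connexin 45) at 3.93 to 6.99, *Panx1* (pannexin 1) at 1.77 to 4.53 and *Gjb6* (connexin 30) at 1.31 to 2.55. In the PMP22 family of *Lim2*, all 4 other members were tested and 0 were called. *Pmp22* itself, a membrane protein best known from myelin, was at 198 to 208 TPM in *FVB/N*, 241 to 256 TPM in *P0-3.9GFPCre* and 203 to 212 TPM in *Le-Cre*. Its log2 fold change between *P0-3.9GFPCre* and *FVB/N* was 0.25 (standard error 0.06, unadjusted p = 0.00282, adjusted p = 0.59, edgeR). *Emp1* was at 0.61 to 2.20 TPM.

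**Figure D5:**
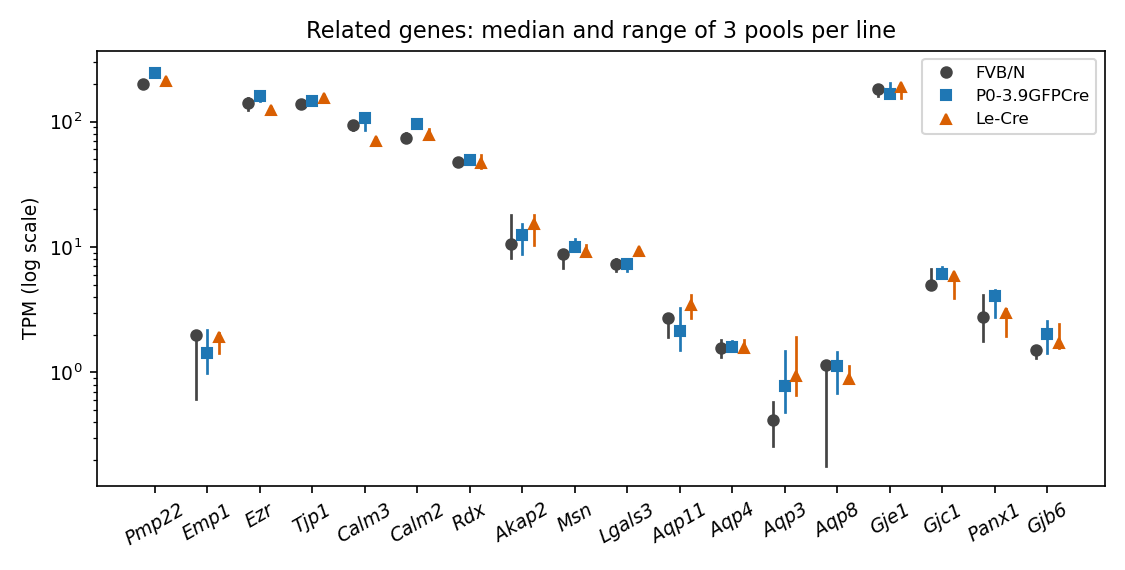
TPM (log axis) of related genes with a mean of at least 1 TPM in some line, as the median (point) and range (bar) of the 3 pools of each line. *Pmp22* lies between 198 and 256 TPM, and the aquaporins lie between 0.18 and 4.18 TPM.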

How the data were processed

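Polyadenylated RNA of 9 pools of newborn lenses was sequenced as single-end reads. The authors trimmed reads with Trimmomatic 0.36, aligned them with GSNAP (GRCm38) and ran RSEM 1.3.0. The deposited expected counts are estimated reads per gene, not normalized, and the deposited TPM values are scaled for length and depth by RSEM. The gene annotation and strand setting are not given in the sources used here. Counts were rounded and tested in R 4.3.3 with edgeR 4.0.16 (TMM, filterByExpr, 1 coefficient per line, quasi-likelihood test, Benjamini-Hochberg adjustment over 15557 genes). The study's methods name DESeq2, run here as an alternative (1.42.0), with limma 3.58.1 on log2(TPM + 1) and log2(TPM + 0.1). The test was checked on simulated counts. Each standard error is |log2 fold change| divided by the root of F. Ratios used two-sided exact permutation tests in scipy.

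Groups and replicate numbers came from the sample titles. For 1 *FVB/N* sample the description carried another number. Named genes were the 6 members, the 3 genes most like each, and listed related genes with a mean of at least 1 TPM in a line. Members and lists were chosen with earlier results of these data known. Some genes covered by this rule, and protein sequences, are not reported here.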

Additional observations from a re-analysis of the deposited data

How the results depend on the processing

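Of 366 values of the log2 fold changes under the alternatives, 347 kept their direction and their side of the threshold, and 18 turned in sign, all far from the threshold. The 1 member called under any alternative was *Aqp1* between *Le-Cre* and *FVB/N*, without the filter on low counts (1 of 6).

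With the Y-linked covariate, *Gja1* turned to 0.35 between *Le-Cre* and *FVB/N* and to 0.00888 between *Le-Cre* and *P0-3.9GFPCre*, and *Mip* to −0.00382 in the latter. With limma on TPM, *Mip* turned to 0.0186 between *P0-3.9GFPCre* and *FVB/N* and to −0.0189 between the transgenic lines, with either pseudocount. The cause was not tested.

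Leaving out 1 pool gave log2 fold changes between *Le-Cre* and *FVB/N* of −0.521 to 0.0933 for *Gja1*. Between *P0-3.9GFPCre* and *FVB/N* it gave −0.0844 to 0.0127 for *Mip*, −0.10 to 0.56 for *Aqp1* and −0.18 to 0.32 for *Gja1*. Between the transgenic lines it gave −0.0472 to 0.0498 for *Mip*, −0.0816 to 0.363 for *Aqp5* and −0.558 to 0.0188 for *Gja1*. The log2 ratio of *Gja3* to *Gja1* then differed by −0.17 to 0.41 between *Le-Cre* and *FVB/N* and by −0.475 to 0.0401 between *P0-3.9GFPCre* and *FVB/N*. That of *Lim2* to *Mip* differed by −0.084 to 0.0512, by −0.105 to 0.0272 and, between the transgenic lines, by −0.0371 to 0.0799. That of *Mip* to *Aqp1* differed by −0.615 to 0.0507 between *P0-3.9GFPCre* and *FVB/N* and by −0.946 to −0.281 between the transgenic lines.

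Over all genes, 10, 0 and 0 were called for *Le-Cre* against *FVB/N*, *P0-3.9GFPCre* against *FVB/N* and *Le-Cre* against *P0-3.9GFPCre*. DESeq2 without a prior called 49, 2 and 35, and with it 8, 1 and 4. For *P0-3.9GFPCre* against *FVB/N* it gave only 1929 genes an adjusted p. Omitting the filter gave 131, 93 and 123, and a mean of at least 10 counts gave 5, 0 and 0. Fitting the compared pools alone gave 13, 0 and 31, the Y-linked covariate 0 in each, and limma 1, 0 and 1 or, with the smaller pseudocount, 0 in each. Leaving out 1 pool gave 0 to 10, 0 to 14 and 0 to 18, with 14 and 18 reached without *FVB/N* replicate 2.

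Deviations of pools with the same number correlated by −0.10 to 0.12 over 9 pairs (mean 0.03), so the numbers were not taken as pairs. With the replicate block, 2, 0 and 0 genes were called, 0 of the 6 in each comparison, and the log2 fold change of *Gja1* between *Le-Cre* and *FVB/N* was −0.21 (standard error 0.11 in place of 0.30). Summing *Mip* with *Gm26847* and *Lim2* with *Gm42419*, an alternative chosen after seeing the data, called 0 of the 6. At 31 to 60 counts per pool, depth limits *Aqp5* most.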

Other observations

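Among 10 genes whose products bind or anchor these channels, all were tested and 0 were called in any comparison. Between *Le-Cre* and *FVB/N*, 5 of the 10 had CPM pools without overlap, where 6.46% of all tested genes were higher and 7.03% lower. At an unadjusted p under 0.05 by edgeR, 3 of the 10 passed, against 7.94% of all tested genes. Between the transgenic lines, 4 of the 10 had CPM pools without overlap, where 6.74% of all tested genes were higher and 7.37% lower in *Le-Cre*. *Calm3*, which encodes calmodulin, a calcium sensor that binds aquaporin 0 and connexins, was listed at 95.7, 93.7 and 86.2 TPM in *FVB/N*, at 106, 86.4 and 109 TPM in *P0-3.9GFPCre* and at 69.8, 68.2 and 74.0 TPM in *Le-Cre*. The *Le-Cre* pools lay below those of both other lines, with a log2 fold change against *FVB/N* of −0.30 (standard error 0.08, adjusted p = 0.331, edgeR). *Calm2* was at 73.0 to 81.0 TPM in *FVB/N* and 90.8 to 96.9 TPM in *P0-3.9GFPCre*, a log2 fold change of 0.25 (adjusted p = 0.59).

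*Ezr*, which encodes the membrane linker ezrin, was at 117 to 129.8 TPM in *Le-Cre* and 124 to 154 TPM in *FVB/N*, a log2 fold change of −0.19 (adjusted p = 0.442, edgeR). *Lgals3*, which encodes the glycan-binding galectin 3, was at 9.0 to 9.43 TPM in *Le-Cre* and 6.49 to 8.08 TPM in *FVB/N*, with pools that did not overlap and a log2 fold change of 0.33 (adjusted p = 0.513, edgeR). *Tjp1*, which encodes the junction scaffold ZO-1, was at 138 to 139.8 TPM in *FVB/N*, 145 to 156 TPM in *P0-3.9GFPCre* and 152 to 163 TPM in *Le-Cre*. Over all pools, *Rdx* was at 42.6 to 53.8 TPM, *Akap2* at 8.12 to 18.1 and *Msn* at 6.76 to 11.7.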
